A study of Mus musculus with 2 samples.

Results

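The genes of cholesterol and fatty acid synthesis were followed across 2 Affymetrix arrays of transduced mouse bone marrow cells. The set was chosen by name, as every probe set whose annotation gave exactly 1 symbol from a list of 34 genes of the pathway. It held 77 of the 45037 probe sets of the table and 33 of the 18193 genes that had such a probe set. Acat2, whose product joins acetyl-CoA units ahead of the mevalonate steps, had no probe set of this kind and was not analysed here. Of the 33 genes, 32 were above the floor intensity of 61.7 on both arrays, and Acacb was below it on both. The floor is the median intensity over the 2 arrays together, and lower intensities were set to it before a difference was taken.

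The study compared LSK Flt3- cells, from wild-type mice of the strain C57BL6J, after transduction with Satb1, which encodes a chromatin-organising protein with affinity for AT-rich DNA, with the same kind of cells after transduction with GFP as the control. LSK Flt3- stands for marrow cells without lineage markers that carry Sca-1 and high c-Kit and lack the Flt3 receptor. Total RNA of each group was hybridised to 1 array. Age, the number of animals or cultures behind an array and the time after transduction are not stated in the labels. With n = 1 per group, no difference has a replicate error or a p-value. In bulk RNA, fewer cells of a type and less RNA per cell cannot be told apart.

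Cells build cholesterol from acetyl-CoA through mevalonate, farnesyl pyrophosphate, squalene and lanosterol, and build fatty acids from the same acetyl-CoA by carboxylation to malonyl-CoA and chain extension. Elongases and desaturases then lengthen the chains and place double bonds. Both branches are governed by the SREBP transcription factors, which are made as membrane proteins in the endoplasmic reticulum. When sterols are scarce, the escort protein SCAP carries them to the Golgi, where they are cut and released to the nucleus, and INSIG proteins hold the complex back when sterols are plentiful. In dividing blood progenitors the pathway supplies membrane lipid and prenyl groups.

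In what follows, a pair of intensities is given in the order GFP, Satb1. The arrays were alike in scale, with a trimmed mean intensity of 497 on both, and 50.7% and 49.2% of probe sets were above the floor on the arrays labelled GFP and Satb1. The transduced gene did not mark its label. All 5 Satb1 probe sets read lower on the array labelled Satb1, and the brightest read 1116 under the GFP label and 909 under the Satb1 label. The dimmest, at 27.8 and 18.5, did not pass the floor. Whether the transduced sequence covers these probe sets is not stated in the labels, so directions rest on the labels alone and would all turn if the labels were exchanged. Kit RNA read 3293 and 3388 and Cd34 RNA 8563 and 8197, while Flt3 RNA was present, at 1390.4 and 1334, although the cells were described as lacking the receptor. The Sca-1 gene was not analysed here.

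The synthesis genes were mostly a little higher on the array labelled Satb1, and none of the 32 genes above the floor differed by 2-fold, where 1.13% of all genes above the floor on at least 1 array did. By its brightest probe set, the pathway had 23 genes higher by some amount and 9 lower. That is 71.9% higher by the labels, while 45.7% of all 10316 genes above the floor on both arrays were higher. The median log2 difference, Satb1 minus GFP, was 0.08 in the pathway (quartiles -0.01 and 0.18) and -0.02 over all genes. Quantile normalization left 20 members higher and 12 lower, with 50.0% of all genes higher. Setting both arrays to a common median gave 27 higher and 5 lower, with 55.5% of all genes higher.

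The same count was made among bright genes, with a cut chosen after seeing the data. Of all genes with a mean intensity over 500, 50.0% were higher, and of the 31 members in that range 23 were higher and 8 lower. At any intensity above the floor, 13 members were higher by at least 0.1 on the log2 scale and 5 lower. The shares of all genes were 26.9% and 35.6%. With a mean intensity over 500, 13 members were higher by that amount and 4 lower, against 1771 and 1874 of 6609 genes. The other 14 members were within 0.1. At 1.5-fold, the single member apart was Scd1, and 5.66% of all genes were. That share and the 1.13% at 2-fold include dimmer genes. Among the 6609 genes with a mean intensity over 500, 40 were at least 1.5-fold higher and 71 lower. At 2-fold, 5 of these were higher and 18 lower.

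**Figure D1:**
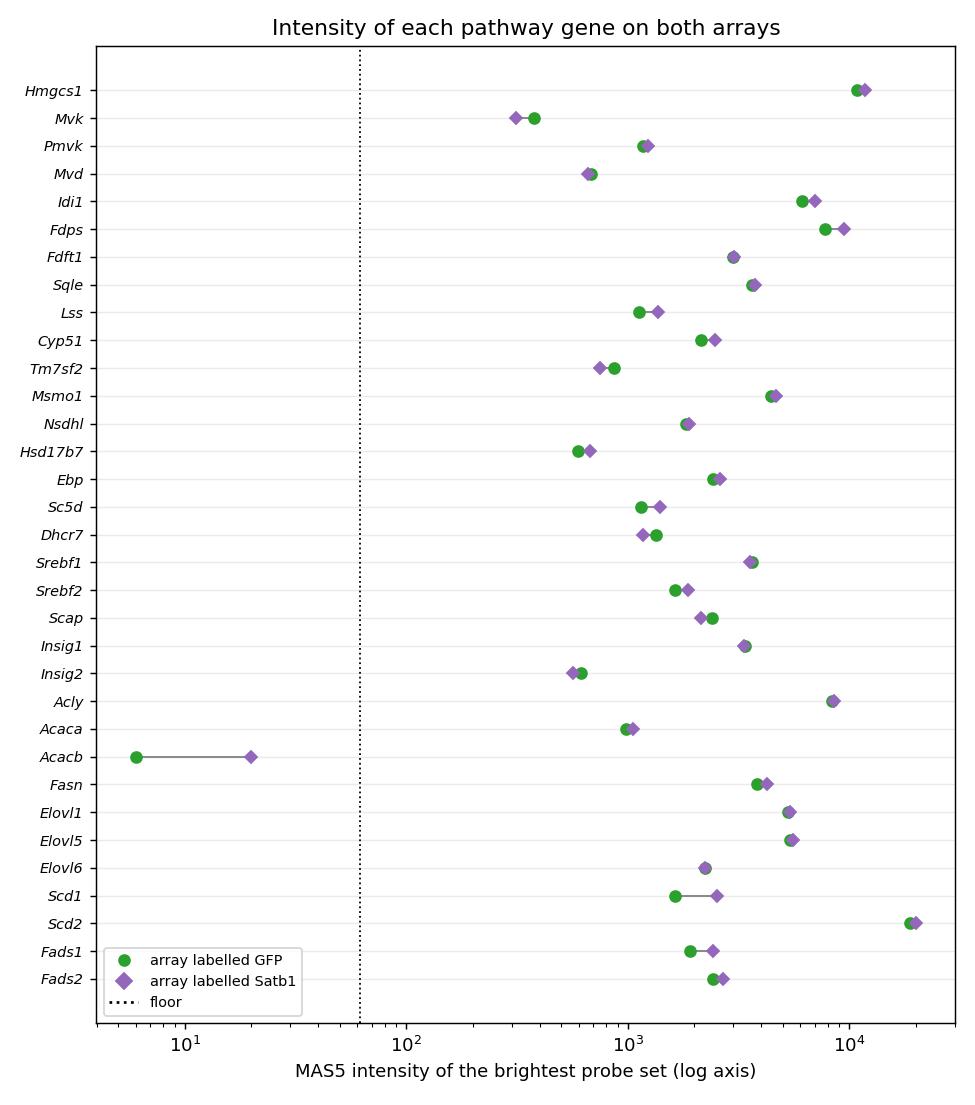
MAS5 intensity of the brightest probe set of each of the 33 measured pathway genes (horizontal log axis) for the GFP label (circles) and the Satb1 label (diamonds), joined by a line, with the floor of 61.7 dotted. The pairs lie close together in every gene but Acacb, which is below the floor on both arrays, and Scd1 (1639 and 2541) is the widest pair above it. Levels of different genes come from different probes and have no common scale.

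How far the probe sets of a gene differ from each other was the technical error that a single array per group allows. Over all genes, the SD of the log2 difference within a gene was 0.28 at mean intensities from 200 to 500, 0.19 from 500 to 2000 and 0.13 above 2000. Only probe sets of a gene that lay in the same range were compared for these values. Measured against the SD at their own intensity, 10 members were higher and 3 lower by more than 1 SD, against 14.2% and 19.4% of all genes. The higher ones were Idi1, Fdps, Lss, Cyp51, Sc5d, Srebf2, Fasn, Scd1, Fads1 and Fads2, and the lower ones Tm7sf2, Dhcr7 and Scap. Sc5d, Srebf2 and Fads1 are counted by their brightest probe sets, and each had another probe set that went the other way. Scd1, Fads1 and Fdps were apart by more than 2 SD. Above 2000, the SD within the 5 members with several probe sets there was 0.16, and against that value Fdps was within 2 SD and Fasn and Fads2 within 1 SD. Over all intensities, the SD was 0.266 for all genes and 0.329 for the 19 members with several probe sets. Against 0.266, the brightest probe sets of Fdps, Lss, Sc5d, Scd1 and Fads1 were higher and that of Mvk lower by more than 1 SD. Only Scd1 was apart by more than 2 SD at 0.266, and no member was at 0.329. An error shared by a whole array or RNA preparation is not part of any of these SDs.

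At the level of probe sets, 64 of the 77 were above the floor on both arrays, 2 on 1 array and 11 on neither. Of the 64, 45 were higher and 19 lower (70.3% higher, against 47.9% of all such probe sets). The 2-fold count held 1 member probe set, a dim Hmgcs1 probe set that was lower, where 1.18% of all probe sets were counted. At 1.5-fold, 1 was higher and 2 were lower, against 7.19% of all probe sets. Of the 19 member genes with 2 or more probe sets that passed the floor on both, 8 had all of them higher (Idi1, Lss, Cyp51, Hsd17b7, Acly, Scd1, Scd2 and Fads2) and 0 had all of them lower. Among all genes of that kind, 23.2% had all higher and 24.6% all lower. In the other 11 the probe sets went both ways.

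**Figure D2:**
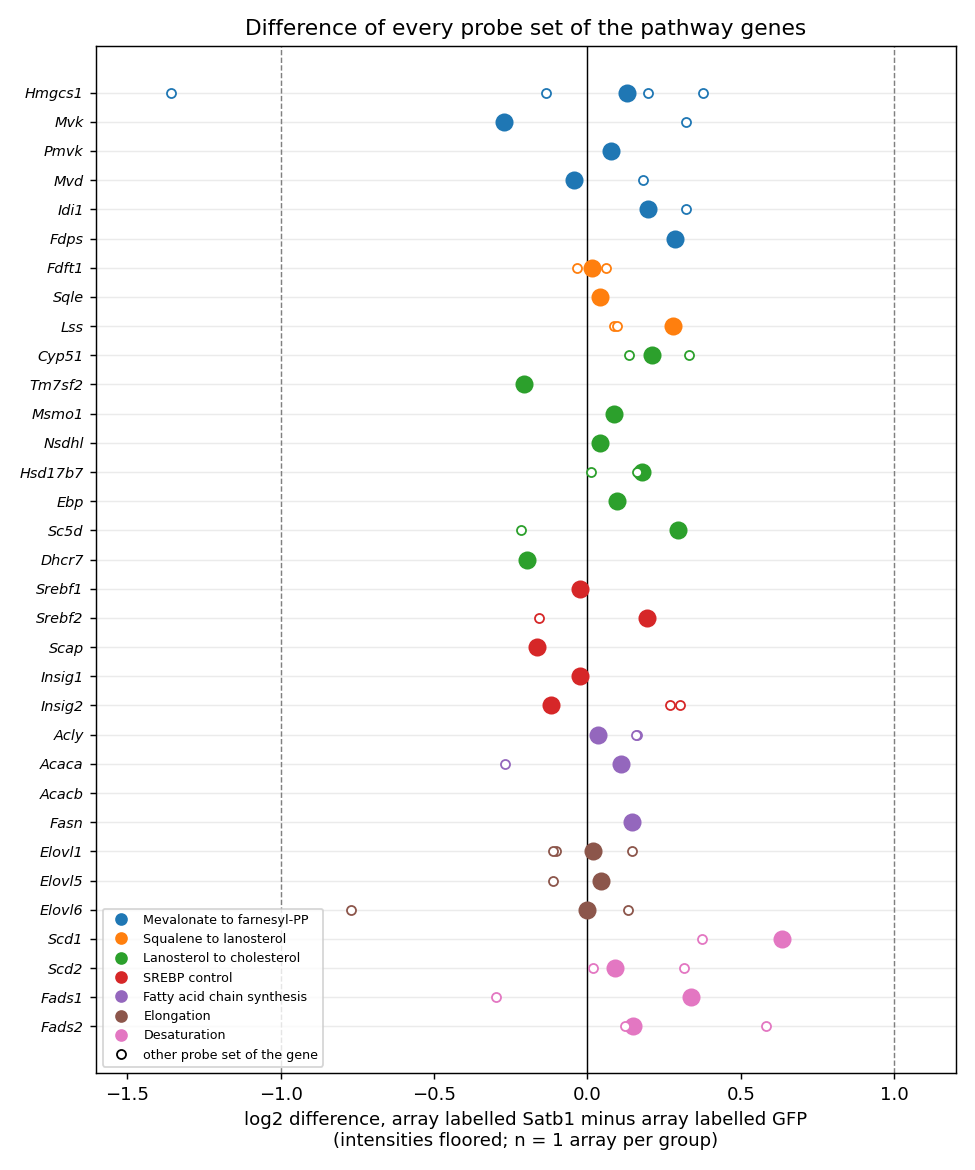
Log2 difference (array labelled Satb1 minus array labelled GFP, after the floor) of each probe set above the floor on at least 1 array, by gene and coloured by step of the pathway. Large filled circles are the brightest probe set of a gene and small open circles its other probe sets, and the dashed lines mark 2-fold. The desaturase genes reach furthest to the right (Scd1, 0.63), and a dim Hmgcs1 probe set lies furthest to the left (-1.36).

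The enzymes of cholesterol synthesis were taken in order of their steps. Of the 17 measured, 13 were higher and 4 lower, with a median log2 difference of 0.09. The medians of the 3 steps (mevalonate to farnesyl pyrophosphate 0.10, squalene to lanosterol 0.04, lanosterol to cholesterol 0.09) stayed above 0 under all 7 processing alternatives. Alternatives that changed only the floor could alter which genes were counted but not their values. With quantile normalization, which could alter the values, the medians were 0.10, 0.01 and 0.06.

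In the mevalonate step 4 of 6 measured genes were higher. Fdps, the synthase of farnesyl pyrophosphate and the branch point towards prenylated proteins, read 7740.3 and 9429.6, 1.22-fold higher. Its second probe set read 0.5 on both arrays, below the floor. Idi1, the isopentenyl pyrophosphate isomerase, read 6134.5 and 7029.9, a log2 difference of 0.20. The other Idi1 probe set, at 3701 and 4627, gave 0.32, so both lay in the same direction. Pmvk, the second kinase of the step, read 1166 and 1230.0, a difference of 0.08.

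Hmgcs1, the cytosolic synthase that commits acetyl units to mevalonate, had 5 probe sets that did not move together. The brightest read 10801 and 11814, a log2 difference of 0.13, and another bright one read 10801 and 9839, a difference of -0.13. Probe sets reading 8328 and 10813, and 2003 and 2299.7, were higher by 0.38 and 0.20. The dimmest read 343 and 134, a 2.56-fold lower value, and the mean log2 difference over all 5 was -0.16. No direction can be given for Hmgcs1 beyond these values.

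The kinase Mvk and the decarboxylase Mvd were the mevalonate genes lower by their brightest probe sets, and in each the second probe set went the other way. Mvk read 378 and 313 (-0.27) in the brighter and 170.5 and 213 (0.32) in the dimmer probe set. Mvd read 683 and 662 (-0.05) and then 504 and 571 (0.18). No direction is given for either.

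Promoter sequence was set beside these values, because SREBP proteins act at sterol regulatory elements, short sites usually flanked by the CCAAT box of NF-Y and the GC box of Sp1. RefSeq windows on GRCm38.p6 (250 bases before to 50 after the start of transcription) were at hand for 28 of the 34 genes. Fdps, Fdft1, Sqle, Scd1, Scd2 and Fads1, which include the 3 genes apart by more than 2 SD at their own intensity, were not searched. The 4 shown are Hmgcs1, which held the only exact sterol element among the 28, Idi1 and Cyp51, whose probe sets were all higher, and Tm7sf2, which was lower. Capitals mark TCACCCCAC and CCAAT on either strand (GTGGGGTGA and ATTGG in reverse).
Hmgcs1: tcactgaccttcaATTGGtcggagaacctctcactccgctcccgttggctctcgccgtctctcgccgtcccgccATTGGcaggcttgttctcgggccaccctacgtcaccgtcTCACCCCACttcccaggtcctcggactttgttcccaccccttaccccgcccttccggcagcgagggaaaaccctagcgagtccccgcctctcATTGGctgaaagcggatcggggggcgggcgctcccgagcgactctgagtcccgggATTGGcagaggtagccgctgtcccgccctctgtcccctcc
Idi1: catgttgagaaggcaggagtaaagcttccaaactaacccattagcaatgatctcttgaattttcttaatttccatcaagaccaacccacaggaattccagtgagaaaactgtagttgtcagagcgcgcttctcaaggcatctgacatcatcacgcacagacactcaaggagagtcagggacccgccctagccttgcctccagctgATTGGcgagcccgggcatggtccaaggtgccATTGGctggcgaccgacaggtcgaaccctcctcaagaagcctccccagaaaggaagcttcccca
Cyp51: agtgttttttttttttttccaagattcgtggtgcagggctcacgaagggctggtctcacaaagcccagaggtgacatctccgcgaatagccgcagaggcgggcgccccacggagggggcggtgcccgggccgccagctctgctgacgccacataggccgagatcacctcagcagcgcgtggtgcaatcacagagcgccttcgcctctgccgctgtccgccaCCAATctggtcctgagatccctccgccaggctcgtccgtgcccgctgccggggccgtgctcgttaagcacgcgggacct
Tm7sf2: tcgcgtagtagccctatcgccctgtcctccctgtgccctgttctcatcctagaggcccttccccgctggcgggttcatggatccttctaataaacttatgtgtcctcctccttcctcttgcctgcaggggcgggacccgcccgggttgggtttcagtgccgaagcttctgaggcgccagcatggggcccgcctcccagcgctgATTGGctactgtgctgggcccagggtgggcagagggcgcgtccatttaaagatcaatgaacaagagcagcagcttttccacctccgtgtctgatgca

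The windows lie at chr13:119690101-119690400 on the plus strand (Hmgcs1), chr13:8885356-8885655 on the plus strand (Idi1), chr5:4104648-4104947 on the minus strand (Cyp51) and chr19:6067801-6068100 on the minus strand (Tm7sf2), each printed on the strand of its gene. Hmgcs1 held the sterol element at bases 114 to 122 of the window, among 4 reverse CCAAT boxes that start at bases 14, 75, 206 and 261. Idi1 had 2 reverse boxes (from bases 206 and 237), Cyp51 had 1 forward box (from base 222) and Tm7sf2 had 1 reverse box (from base 204). The higher and the lower genes shown thus both carried the box.

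Over all members with a window, 23 of 28 genes (82.1%) held CCAAT on either strand in at least 1 window, against 42.3% of 17492 protein-coding genes. The GC box GGGCGG was in 22 of the 28 (78.6%, against 49.2%) and the E-box CACGTG in 6 (21.4%, against 8.91%). The exact sterol element TCACCCCAC was in 1 of the 28 (3.57%), against 0.617% of protein-coding genes. Sites that differ from these letters were not counted, so no match says only that the letters are not in the window. Member windows were richer in G and C, with a median of 61.3% against 56.3%. These matches are descriptions of sequence and were not tied to the array differences.

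Of the enzymes from squalene to lanosterol, all 3 were higher by some amount. Lss, the cyclase that closes the sterol rings, read 1128 and 1368.5, 1.21-fold higher. Its other probe sets read 847 and 899.8 (0.09), and 133 and 142 (0.10), smaller differences in the same direction. Sqle, the epoxidase that first adds oxygen to squalene, was nearly level at 3654 and 3758.5 (0.04). Fdft1, which joins farnesyl units into squalene, read 2996 and 3025 (0.01) and, by its second probe set, 1723 and 1683 (-0.03). Its sign turned with quantile normalization (-0.02). Of the 2 dimmest Fdft1 probe sets, 1 passed the floor on a single array and 1 on neither.

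From lanosterol on, 6 of 8 genes were higher. Cyp51, the demethylase that acts first on lanosterol, read 2142 and 2476, a log2 difference of 0.21, and its other probe sets gave 0.33 (1515 and 1904) and 0.14 (80.5 and 88.4). All 3 were thus higher on the array labelled Satb1. Hsd17b7, a ketoreductase of the C4 demethylation, was higher in 3 of 3 probe sets above the floor, the brightest at 595 and 672 (0.18). Sc5d, the desaturase that places the C5 double bond, read 1145 and 1404 (0.29) by its brightest probe set, but 346 and 298 (-0.21) by the second. The mean over its probe sets was 0.03, and so no direction is given for it.

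The middle enzymes of this stretch lay within 0.1 of level. Msmo1, the methyl oxidase of C4 demethylation, read 4414 and 4692 (0.09), and Ebp, the isomerase of the sterol double bond, 2429 and 2595.5 (0.10). Nsdhl, the decarboxylating dehydrogenase, read 1841 and 1893.5 (0.04). Each of these was higher, by amounts below the SD between probe sets at their intensity.

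The 2 sterol reductases of the set went the other way. Tm7sf2, a C14 reductase, read 869.9 and 753, a log2 difference of -0.21. Dhcr7, the C7 reductase whose substrate is also the precursor of vitamin D, read 1348 and 1177 (-0.20). Both had a single probe set above the floor, so of the 7 alternatives only quantile normalization and the common median could change their values. Under these, Tm7sf2 stayed lower (-0.18 and -0.16), as did Dhcr7 (-0.19 and -0.14).

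Of the 5 control genes of the pathway, 1 was higher and 4 lower by their brightest probe sets, and 2 of the lower ones were close to level. With the arrays set to a common median, 3 were higher and 2 lower, and the list's median of -0.02 turned to 0.03. Srebf1, which encodes the SREBP-1 factors tied mainly to fatty acid genes, was level at 3621 and 3560.1 (-0.02). Srebf2, which encodes the SREBP-2 factor tied mainly to cholesterol genes, read 1641.5 and 1879.8 (0.20) by its brightest probe set and 666.5 and 598 (-0.16) by the other. The probe sets of Srebf2 thus went opposite ways.

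Scap, the sterol-sensing escort of SREBP, read 2390.1 and 2135 (-0.16). It stayed lower with quantile normalization (-0.19) and with the common median (-0.11). The second Scap probe set did not pass the floor. Insig1, which is itself a well-known target of SREBP, was level at 3389.7 and 3336 (-0.02). Insig2, its relative, read 615 and 566 (-0.12) by the brightest probe set, while the others read 351 and 432 (0.30) and 303 and 365 (0.27). The mean over the Insig2 probe sets was 0.15, opposite in sign to the brightest.

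Of the 10 fatty acid enzyme genes that passed the floor, 9 were higher by their brightest probe sets, with a median log2 difference of 0.10, and Elovl6 was level. The count of higher genes fell to 7 of 10 with quantile normalization and to 6 of 10 with the mean over probe sets, while that of the cholesterol enzymes was 12 and 14 of 17. In the branch that builds the chain, all 3 genes that passed the floor were higher. Acly, the lyase that makes cytosolic acetyl-CoA from citrate, read 8358 and 8559.6 (0.03), 6593 and 7373 (0.16), and 772 and 861 (0.16). Another 3 Acly probe sets did not pass the floor. The sign of its brightest probe set turned with quantile normalization, to -0.02.

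Fasn, the multi-domain synthase that extends the chain to palmitate, read 3835 and 4246, a log2 difference of 0.15. It had a single probe set, so only quantile normalization (0.11) and the common median (0.20) could change its value, and it stayed higher under both. Acaca, the carboxylase that supplies malonyl-CoA for synthesis, read 983 and 1061 (0.11), and its dim second probe set read 74.3 and 57.7. Acacb, the mitochondrial carboxylase that restrains fatty acid oxidation, read 6.0 and 20.0 by its brighter and 9.2 and 6.0 by its other probe set. Both are below the floor, and no direction is given.

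The elongases were level. Elovl1, which extends very long chains, read 5308 and 5372 (0.02), with 3 other probe sets from -0.11 to 0.15. Elovl5, which extends polyunsaturated chains, read 5388 and 5554 (0.04) and 4798 and 4435 (-0.11). Elovl6, which extends palmitate to stearate, read 2230.2 and 2229.7 by its brightest probe set and 979 and 1075 (0.13) by the second. The remaining, dim Elovl6 probe set read 116 and 68.1, a difference of -0.77. The median of the 3 genes, 0.02, turned to -0.02 with quantile normalization and to -0.03 with the mean over probe sets.

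The desaturases were the step with the largest differences by the brightest probe sets, and all 4 were higher by these. The second probe set of Fads1 was lower. Their median log2 difference was 0.24. It was 0.22 with quantile normalization, 0.30 with the common median and 0.21 with the mean over probe sets. The other alternatives left it unchanged. Scd1, the delta-9 desaturase that makes oleate and palmitoleate, read 1639 and 2541, 1.55-fold higher. Its second probe set read 359.9 and 466, 1.29-fold higher, in the same direction. Scd1 ranked 127th from the top of the 10316 genes above the floor on both arrays, and the mean over its probe sets was 0.50, below 1.5-fold.

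Scd2, another delta-9 desaturase, was bright on both arrays, at 18876 and 20096 (0.09). The others of its probe sets read 1099.8 and 1369 (0.32), and 116 and 117 (0.02), and all 3 were higher by some amount. The genes of Scd1 and Scd2 are close relatives, and how far their probes tell them apart was not tested.

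Fads1 and Fads2 encode the delta-5 and delta-6 desaturases that make polyunsaturated fatty acids. Fads1 read 1916.5 and 2423, a log2 difference of 0.34, but its second probe set read 292 and 238 (-0.30). The mean over both was 0.02, and so no direction is given for Fads1. Fads2 was higher in all 3 probe sets, at 2422 and 2687.5 (0.15), 911 and 993 (0.12), and 489 and 732 (0.58). The last has the suffix _x_at, given to probe sets that may cross-hybridise. Of the desaturases, Scd1, Scd2 and Fads2 thus had every probe set higher, and Fads1 did not.

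**Figure D3:**
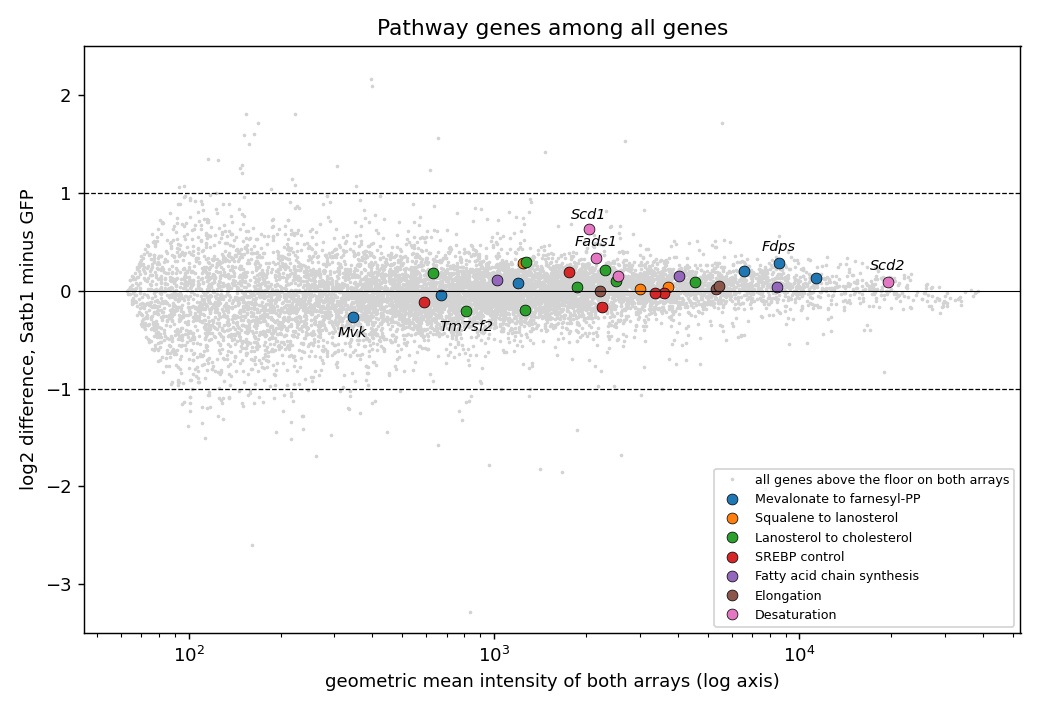
Log2 difference (Satb1 minus GFP, vertical axis) against the geometric mean intensity of both arrays (horizontal log axis) for the 10316 genes above the floor on both arrays (grey), with the 32 pathway genes coloured by step and the dashed lines at 2-fold. The pathway genes lie inside the 2-fold lines, between -0.27 (Mvk) and 0.63 (Scd1), with more of them above 0 than below. Scd1 ranks 127th from the top of the 10316 genes.

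Neighbouring lipid genes were compared through 6 further lists. In sterol transport and efflux, 6 of 11 genes above the floor on both arrays were higher and 5 lower (median 0.04). Abca1, the pump that loads cholesterol onto lipoprotein, read 451 and 659, 1.46-fold higher, and Npc1, which releases cholesterol from lysosomes, 339.9 and 431 (0.34). Among genes of SREBP cleavage and sterol-dependent turnover, 5 of 9 were higher (median 0.05). The largest differences there were those of Erlin1, an endoplasmic reticulum scaffold gene, at 1759 and 2002 (0.19), and Tmem33, a membrane protein gene, at 3677 and 4140.3 (0.17).

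Other lists held genes that draw on or supply the same precursors. In the isoprenoid branch 5 of 10 genes were higher and 5 lower, with a median of -0.05 that turned to 0.01 with the common median. Pdss2, of the coenzyme Q side chain synthase, read 358 and 226, 1.59-fold lower, and Icmt, which methylates prenylated proteins, 458 and 349 (-0.39). In acetyl-CoA and NADPH supply 5 of 7 were higher (median 0.07). Acss1, the mitochondrial acetyl-CoA synthetase gene, read 819 and 1002 (0.29), while Acss2, its cytosolic relative and a known SREBP target, read 662 and 562 (-0.24).

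Fatty acid activation and glycerolipid synthesis had 7 of 11 genes higher and a median of 0.03. Its largest differences were lower ones, of the triglyceride-forming acyltransferase Dgat1 (627 and 459, -0.45) and the lysophosphatidate acyltransferase gene Agpat3 (294 and 222, -0.41). Fatty acid oxidation had 4 of 11 higher and 7 lower, with a median of -0.03 that turned to 0.03 with the common median. The carnitine carrier gene Slc25a20 read 2104 and 1658 (-0.34), and Cpt2, the inner carnitine palmitoyltransferase, 724 and 611 (-0.25). By their brightest probe sets, no gene of the 6 lists differed by 2-fold, and Pdss2 alone passed 1.5-fold. Of all genes, 1.13% and 5.66% did. Dimmer probe sets of Stard4, Vldlr, Mbtps1 and Me1 (higher) and of Agpat3 (lower) also passed 1.5-fold.

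**Figure D4:**
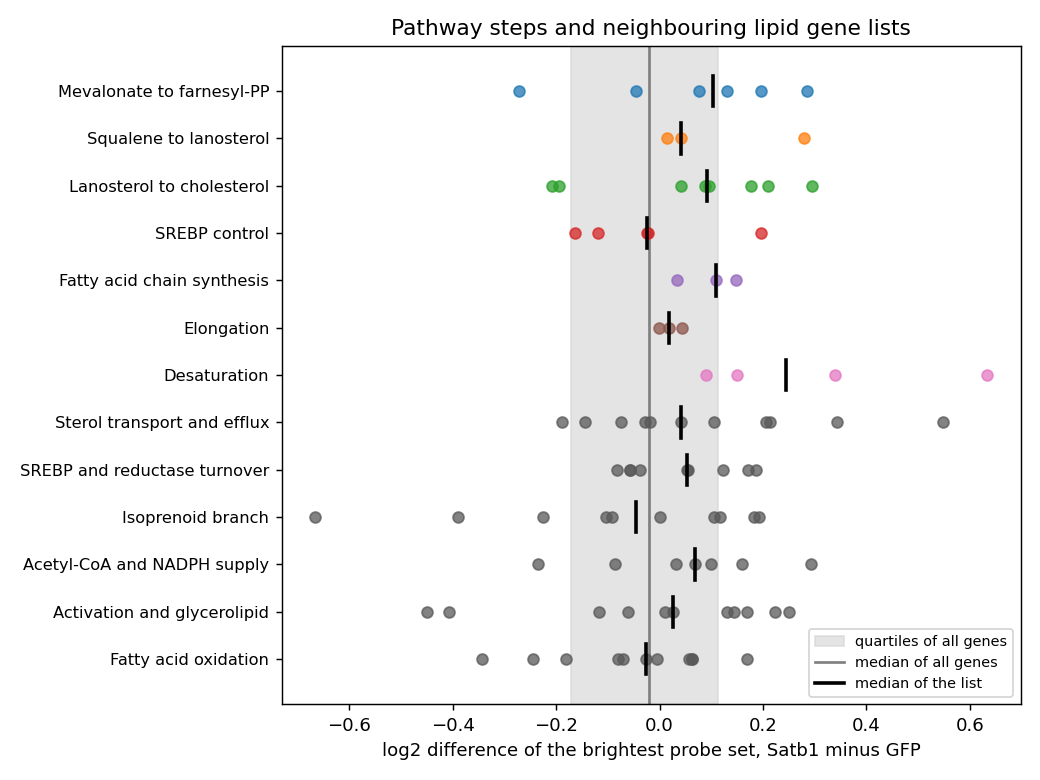
Log2 difference (Satb1 minus GFP) of the brightest probe set of each gene above the floor on both arrays, by step of the pathway (coloured) and by neighbouring lipid list (grey), with the median of each list as a black bar. The grey band spans the quartiles of all genes (-0.17 to 0.11) around their median of -0.02. The band describes single genes and is no range for a median; the desaturation list has the highest median of those drawn (0.24).

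Markers of other blood cells moved between the same arrays. Of all genes above the floor on at least 1 array, 1.13% differed by 2-fold. Of 9 granulocyte genes, 5 were at least 2-fold higher (Camp, Ltf, Lcn2, S100a8 and S100a9) and 1, Ms4a3, at least 2-fold lower. Ngp (1.91-fold) and Elane (1.65-fold) were also higher. The summed intensities of the 9 genes were 28079.8 and 36762. Mpo, which was lower (18391 and 16452), makes up most of the first sum, so the sum does not stand for the other markers. Of 5 mast cell, basophil and eosinophil genes, Prg2 was at least 2-fold higher and Fcer1a, Mcpt8 and Ms4a2 at least 2-fold lower. Cpa3 was 1.39-fold lower, and the sums of the 5 genes were 13889.7 and 8245. The part of these cells in the differences of the synthesis genes was not tested. All 4 measured adipocyte genes (Adipoq, Lep, Fabp4 and Cidec) were below the floor on both arrays, with sums of 74.8 and 36.8. Of the erythroid genes 2 of 4 passed the floor, and both were higher, Klf1 at 87.1 and 138 (1.59-fold) and Epor at 149.9 and 183 (1.22-fold). Of the T cell genes 1 of 4 passed, Cd8a at 88.9 and 147.5 (1.66-fold higher), and of the B cell genes 1 of 3, Cd79b at 412 and 352 (-0.23). That Cd8a probe set has the suffix _x_at, and all other Cd8a probe sets were below the floor on both arrays. No direction is given for Cd8a.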

How the data were processed

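The deposited values are intensities on a linear scale, which the authors made with MAS5, per the submitters' processing notes (version and target of the scaling: not given in the sources used here). Gene symbols came from the platform annotation and were updated through Entrez IDs against RefSeq (GRCm38.p6). Of 45037 probe sets, 34945 had 1 symbol, 932 several and 9160 none, and only the first were used.

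Intensities below the median of all values (61.7) were set to it, and log2 differences (Satb1 minus GFP) were taken with no further normalization. The probe set brightest on average (log2) stood for its gene. Calls were made at 2-fold and 1.5-fold, and no test was possible with 1 array per group. All members were named. In each neighbouring list the 2 genes with the largest difference above the floor on both arrays were named, as was every gene past 2-fold. The members and lists were chosen with earlier results of these data known. Alternatives covered the floor, the scaling, the probe set rule and the threshold. Promoter windows came from RefSeq and were searched for exact motifs on both strands. The scripts (Python 3.11.15, pandas 2.3.3, numpy 2.4.6) were tested on simulated data. Arrays have no read depth, and their number limits the precision.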

Additional observations from a re-analysis of the deposited data

How the results depend on the processing

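No paired analysis was possible because each group had 1 array, and for the same reason no array could be left out. The count of members past 2-fold was 0 as reported. It was 1 with no floor (Acacb, dim on both arrays) and 1 with a 1.5-fold threshold, and 0 under the other alternatives run. Past 1.5-fold there was 1 member, 2 with no floor and 0 with the mean over probe sets. The 23 members higher by any amount became 45 when every probe set was counted (of 64) and 13 when at least 0.1 on the log2 scale was asked for. They stayed 23 (of 31) at a mean intensity over 500. All of these counts were chosen after seeing the data. The pathway median stayed between 0.04 and 0.13. Of the 32 members above the floor, 20 kept their sign under all alternatives that gave them a value (17 higher, 3 lower) and 12 did not. The cause of these changes was not tested. In a member with a single probe set, only the scaling alternatives could change the value. In no member above the floor could a change of the floor alone alter the value.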

Other observations

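Some neighbouring lipid genes had several probe sets on the same side. Stard4, Vldlr and Nus1 lie outside the naming rule and were chosen after their values were seen. Stard4, a sterol carrier gene known as an SREBP target, was higher in all 3 probe sets, at 2305 and 2671 (0.21), 1555 and 2478 (0.67), and 1221 and 1476 (0.27) on the arrays labelled GFP and Satb1. Vldlr, a lipoprotein receptor gene, was higher in all 6, by 0.21 in the brightest (1087.5 and 1254) and by 0.64 in the next (280.0 and 437). The dimmest Vldlr probe set (50.4 and 73.8) was below the floor on the array labelled GFP. Nus1, of the isoprenoid list, was higher in all 6 probe sets, by 0.07 to 0.41, and all were above the floor on both arrays. Agpat3, named by the rule, was lower in all 4, from 294 and 222 in the brightest (-0.41) to 27.6 and 10.7 in the dimmest, which is below the floor on both arrays. Acss2, also named by the rule, was lower in both probe sets above the floor, at 662 and 562 (-0.24) and at 675 and 516 (-0.39), opposite to most synthesis genes.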
